A study of Sus scrofa with 6 samples.

Results

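The genes described here are the muscle atrophy ubiquitin ligases and the FOXO transcription factors that regulate them, measured in the longissimus dorsi (LD) muscle of Laiwu pigs. They were chosen by gene symbol from a list of 10 genes, and the values of all transcripts of a gene were summed. By symbol, 8 of the 10 genes were found in the table (FBXO32, TRIM63, TRIM54, TRIM55, FOXO1, FOXO4, FBXO40 and WWP1). FOXO3 was found by its Ensembl gene identifier, so 9 genes of 31908 in all were described. MUSTN1 was matched by neither route and was not analysed here. The 6 libraries came from castrated male Laiwu pigs, a fatty Chinese breed, that were selected after slaughter for extreme intramuscular fat (IMF) content. The high-IMF group (S-H) was LW63, LW70 and LW119, and the low-IMF group (S-L) was LW82, LW88 and LW90, with 1 untreated animal and 1 library for each replicate. The comparison of S-H with S-L answers which genes differ between muscle rich and poor in fat. The age of the pigs is not given in the sources used here.

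Skeletal muscle loses mass when its proteins are marked with ubiquitin and degraded by the proteasome. The F-box protein atrogin-1 (FBXO32) and the RING finger protein MuRF1 (TRIM63) are the ligases best known for rising in wasting muscle, and both are switched on by FOXO factors. Insulin and growth factor signaling keeps FOXO proteins phosphorylated by AKT and out of the nucleus, while fasting and glucocorticoids favour their activity.

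Gene expression was given in FPKM, a fragment count divided by transcript length and by the mapped fragments of the library, so that levels of different genes can be compared. The tissue label was checked against 7 skeletal muscle fibre genes, all of which were expressed in every pig, with a summed level of 13074.4 to 19110.5 FPKM in S-H and 14578.2 to 24528.2 FPKM in S-L. Markers of adipocytes were higher in S-H as a sum. The 7 adipocyte genes summed to between 530.1 and 1464 FPKM in S-H and between 375.2 and 464.1 FPKM in S-L. In FPKM, 5 of them (PLIN1, LEP, CIDEC, FABP4 and ADIPOQ) passed the test described here as higher in S-H, where 0.931% of all tested genes did. Their lowest adjusted p was 0.557 (limma). PLIN4 and CFD did not pass and overlapped between the groups. With size factors, described below, ADIPOQ (unadjusted p = 0.0112) and FABP4 (0.0168, limma for both) no longer passed. The summed markers of endothelial cells, fibroblasts, macrophages, satellite cells and blood overlapped between the groups, and no marker of any of these lists was at 0 in any pig. In bulk muscle, fewer cells of a type and less RNA per cell cannot be told apart. The part of adipocyte RNA in the levels of the ligase and FOXO genes was not tested.

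TRIM63 was the most abundant of the 9 genes, with a mean of 256.2 FPKM over the 6 pigs, and it exceeded the next gene, TRIM54 (49.2 FPKM), in all 6 pigs. TRIM54, WWP1 (38.1 FPKM), FBXO32 (35.0 FPKM) and FBXO40 (34.6 FPKM) formed a middle group. The place of FBXO32 rested on assembled transcripts described below, since its annotated transcripts alone averaged 8.10 FPKM, under the annotated level of each of the other 8 genes. FOXO3 (12.2 FPKM), TRIM55 (12.1 FPKM), FOXO1 (10.97 FPKM) and FOXO4 (9.18 FPKM) were the lowest, and FBXO40 lay above FOXO3 in all 6 pigs. These 2 steps had the smallest p that 6 pigs allow (exact two-sided sign-flip permutation of the log2 ratio within pigs, p = 0.0313, adjusted over 8 neighbouring pairs p = 0.125). The pairs and their direction came from the means of the same 6 pigs, so these p are no independent support. The other 6 neighbouring pairs did not differ beyond the spread between pigs, and the higher gene was higher in only 3 or 4 of the 6 pigs. On annotated transcripts alone FBXO40 was 5.70 FPKM in LW119, below FOXO3 at 9.59 FPKM in that pig. All 9 genes were well within the expressed range, from the 77.8th (FOXO4) to the 98.95th percentile (TRIM63) of the 16333 genes tested.

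**Figure D1:**
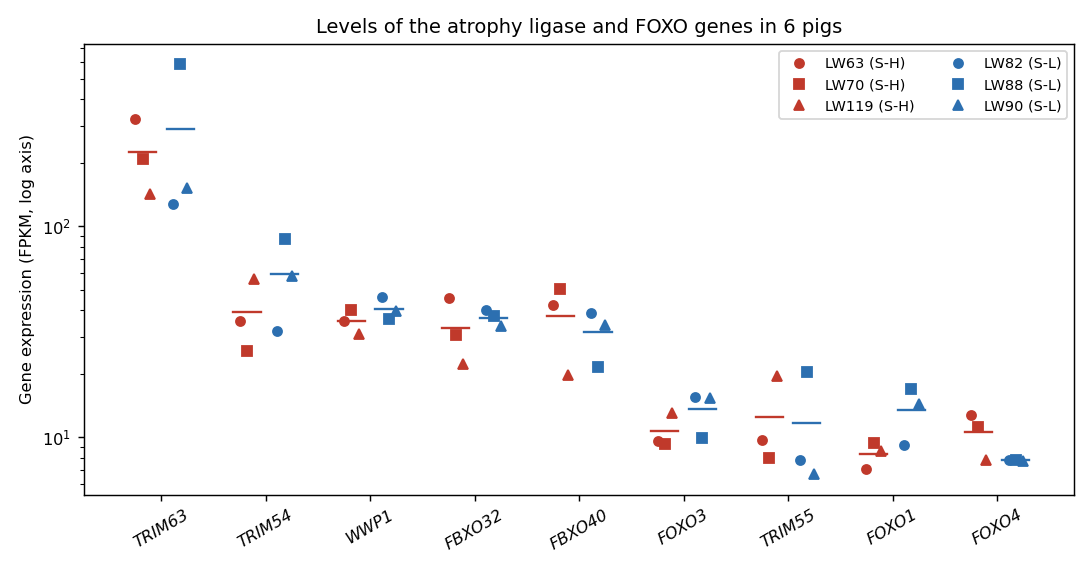
Gene expression in FPKM on a log axis for the 9 genes, ordered by mean level, with 1 point per pig and a short line at each group mean (red, S-H; blue, S-L). The points of the groups overlap for every gene, and LW88 stands at 583.7 FPKM of TRIM63.

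S-H was compared with S-L by limma, a linear model with moderated variances, on log2(FPKM + 0.1) for the 16333 genes whose mean reached 0.1 FPKM. To pass, a gene needed a log2 fold change of 1 or more in either direction and an unadjusted p below 0.01. None of the 9 genes passed, where 1.25% of all tested genes did, and 1 of them, FOXO1, had an unadjusted p below 0.05, where 7.45% of all tested genes did (6.11% higher and 1.34% lower in S-H). None had a Benjamini-Hochberg adjusted p below 0.05, nor did any of the tested genes. None of the 9 genes had all pigs of one group above all pigs of the other, which held for 14% of all tested genes (11.9% with S-H above and 2.06% with S-H below). The FPKM scale itself was shifted between the groups. Over all tested genes the median log2 fold change stood at 0.19, with 70.6% of values above 0, and it was 0.01 after division by median-ratio size factors. Values on both scales are given for each of the 9 genes.

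TRIM63 (chromosome 6, 83492633 to 83507499 on Sscrofa11.1), which encodes the MuRF1 ligase of thick filament proteins, had 322.0 FPKM in LW63, 208.9 in LW70 and 142.6 in LW119, and 127.9 FPKM in LW82, 583.7 in LW88 and 152.1 in LW90. The highest and the lowest pig were both in S-L, and they differed 4.56-fold. The S-H mean was 224.5 ± 90.7 FPKM and the S-L mean 287.9 ± 256.4 FPKM (SD, n = 3 each), with a log2 fold change of -0.08 (95% interval -1.33 to 1.17, adjusted p = 0.977, limma), and -0.29 with size factors (unadjusted p = 0.641, limma). This interval allows differences of more than 1 log2 unit in either direction. The direction rested on single pigs, since the log2 fold change was 0.61 without LW88 (unadjusted p = 0.134) and 0.21 without LW119 (unadjusted p = 0.733, limma for both). The spread of TRIM63 within the groups, an SD of 0.94 on the log2 scale, was at the 92.8th percentile of all tested genes.

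FBXO32 (chromosome 4, 15895351 to 15930940), which encodes the F-box protein atrogin-1, had 45.9 FPKM in LW63, 30.7 in LW70 and 22.3 in LW119, against 40.0 FPKM in LW82, 37.4 in LW88 and 33.5 in LW90. The S-H pigs held both the highest and the lowest value, and the 3 S-L pigs lay between them. The log2 fold change was -0.22 (95% interval -0.87 to 0.42, adjusted p = 0.854, limma), and -0.43 with size factors (unadjusted p = 0.180, limma). FBXO32 varied less than TRIM63, with a within-group SD of 0.38 on the log2 scale (43.8th percentile). LW88, the pig with the highest TRIM63, was only the third highest in FBXO32.

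The other MuRF genes were TRIM54 (MuRF3, chromosome 3, 111834151 to 111852745) and TRIM55 (MuRF2, chromosome 4, 68487109 to 68530889), whose proteins bind microtubules and titin in the sarcomere. TRIM54 had 35.7 FPKM in LW63, 25.8 in LW70 and 56.0 in LW119, and 31.9 FPKM in LW82, 87.3 in LW88 and 58.4 in LW90. Its log2 fold change was -0.55 (95% interval -1.47 to 0.36, adjusted p = 0.742, limma), and -0.76 with size factors (unadjusted p = 0.110, limma), and the groups overlapped. TRIM55 had 9.75 FPKM in LW63, 8.03 in LW70 and 19.6 in LW119, against 7.83 FPKM in LW82, 20.5 in LW88 and 6.69 in LW90. For TRIM55, 1 pig of each group, LW119 and LW88, stood apart above the other pigs. Its log2 fold change was 0.17 (95% interval -0.89 to 1.23, adjusted p = 0.939, limma), and -0.04 with size factors. LW88 was the highest pig for all 3 MuRF genes, which summed to 691.5 FPKM in LW88 and to between 167.7 and 367.4 FPKM in the other 5 pigs.

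A share within a library does not depend on a scaling that is applied to all genes of that library alike. TRIM63 made up 87.6% of the summed MuRF FPKM in LW63, 86.1% in LW70 and 65.4% in LW119, and 76.3% in LW82, 84.4% in LW88 and 70.0% in LW90. It was thus the main MuRF transcript in every pig, with S-H at 79.7% ± 12.4 and S-L at 76.9% ± 7.21 (SD, n = 3 each, exact permutation test, two-sided, p = 0.80). TRIM55 had its largest share, 8.97%, in LW119, and between 2.65% and 4.67% in the other 5 pigs. FBXO32 was 12.5% to 13.6% of the sum of FBXO32 and TRIM63 in the 3 S-H pigs, and 23.8% in LW82, 6.02% in LW88 and 18.1% in LW90. The ratio of the 2 main atrophy ligases was nearly the same in the S-H pigs and spread around it in the S-L pigs (12.9% ± 0.552 against 15.96% ± 9.07, SD, n = 3, exact two-sided permutation test of the means, p = 0.70). Whether the spread differed was not tested. These shares rested mostly on the assembled FBXO32 transcripts, and with annotated transcripts alone they were 2.38% in LW63, 2.72% in LW70 and 2.15% in LW119, and 8.27% in LW82, 1.12% in LW88 and 8.23% in LW90.

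**Figure D2:**
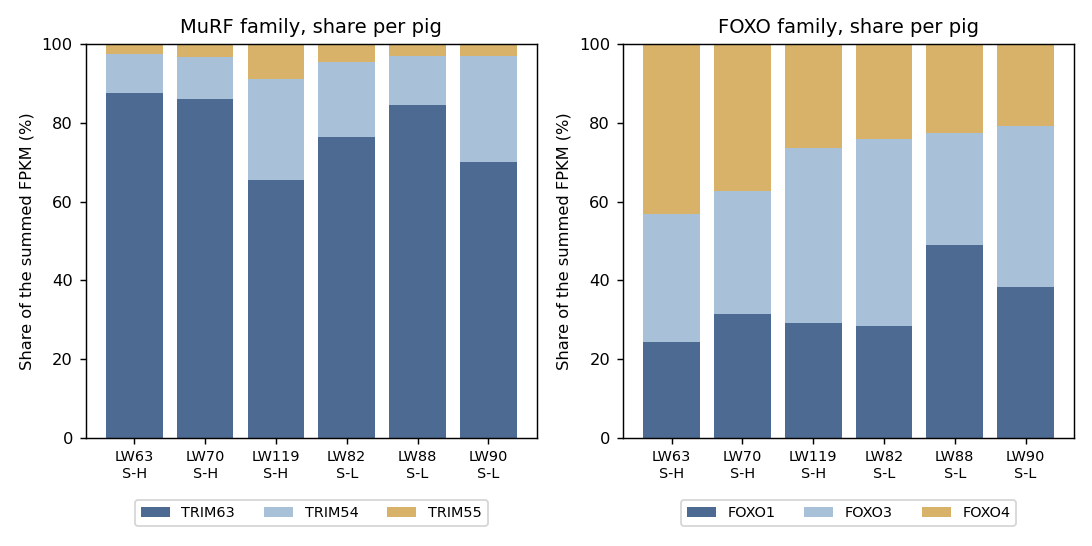
Share of each gene in the summed FPKM of its family, in percent, for each pig, with the MuRF genes on the left and the FOXO genes on the right. TRIM63 holds between 65.4% and 87.6% of the MuRF sum. The FOXO4 share is higher in each S-H pig than in each S-L pig, which depends on the inferred conversion of FOXO3.

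FBXO40 (chromosome 13, 138881513 to 138905356) encodes a muscle F-box protein known to target IRS1 for degradation. It had 42.4 FPKM in LW63, 50.7 in LW70 and 19.8 in LW119, and 38.7 FPKM in LW82, 21.7 in LW88 and 34.1 in LW90, so that each group had 1 low pig. Its log2 fold change was 0.19 (95% interval -0.67 to 1.05, adjusted p = 0.916, limma), and -0.01 with size factors. WWP1 (chromosome 4, 50370088 to 50509113), a HECT-type ligase whose mutation causes muscular dystrophy in chickens, was the steadiest of the 9 genes. It had 35.7 FPKM in LW63, 40.1 in LW70 and 30.8 in LW119, and 46.0 FPKM in LW82, 36.3 in LW88 and 39.7 in LW90. The within-group SD of WWP1 was 0.18 on the log2 scale, at the 7.02th percentile of all tested genes, and its log2 fold change was -0.20 (95% interval -0.70 to 0.31, adjusted p = 0.830, limma), and -0.40 with size factors (unadjusted p = 0.138, limma).

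Among the FOXO genes, FOXO1 (chromosome 11, 15317124 to 15410473), the FOXO factor most tied to fuel switching in muscle, had the lowest unadjusted p of the 9 genes. It had 7.13 FPKM in LW63, 9.39 in LW70 and 8.63 in LW119, and 9.25 FPKM in LW82, 17.0 in LW88 and 14.4 in LW90. LW88 and LW90 were above all S-H pigs, while LW82 was just below LW70. The S-H mean was 8.38 ± 1.15 FPKM and the S-L mean 13.6 ± 3.96 FPKM (SD, n = 3 each). The log2 fold change was -0.65 (standard error 0.28, 95% interval -1.29 to -0.01, unadjusted p = 0.0460, adjusted p = 0.663, limma). With size factors it was -0.85 (unadjusted p = 0.0281, adjusted p = 0.765, limma), where 3.12% of all tested genes had an unadjusted p below 0.05 and were lower. Leaving out 1 pig at a time moved it between -0.90, without LW82, and -0.46, without LW88, and the unadjusted p was below 0.05 only without LW82 (0.0123, limma).

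FOXO3 (chromosome 1, 74628217 to 74760328), the FOXO factor best known for driving the atrophy ligases and autophagy genes, had 9.61 FPKM in LW63, 9.36 in LW70 and 13.1 in LW119, and 15.5 FPKM in LW82, 9.92 in LW88 and 15.4 in LW90. LW82 and LW90 were above all S-H pigs, and LW88 was below LW119. Its log2 fold change was -0.33 (95% interval -0.94 to 0.28, adjusted p = 0.757, limma), and -0.54 with size factors (unadjusted p = 0.0795, limma). FOXO4 (chromosome X, 57132548 to 57140650) lay the other way. It had 12.7 FPKM in LW63, 11.2 in LW70 and 7.81 in LW119, while the 3 S-L pigs were within 7.77 and 7.82 FPKM. LW119 matched the S-L pigs and the other 2 S-H pigs were above them, with a log2 fold change of 0.40 (95% interval -0.17 to 0.97, adjusted p = 0.712, limma), and 0.20 with size factors (unadjusted p = 0.470, limma). Without LW119 it was 0.60 (unadjusted p = 0.0410, limma).

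The balance of the 3 FOXO genes was compared as shares of their sum. The annotated FOXO3 transcript entered after an inferred conversion with 1 factor per pig (0.639 in LW119 to 0.847 in LW82). FOXO1 and FOXO4 were not converted, so these shares depend on that factor, and so does the separation of the groups by the FOXO4 share. FOXO4 made up 43.2% of the summed FOXO FPKM in LW63, 37.4% in LW70 and 26.4% in LW119, and 24.0% in LW82, 22.5% in LW88 and 20.7% in LW90. Each S-H pig was above each S-L pig (35.6% ± 8.50 against 22.4% ± 1.65, SD, n = 3, exact permutation test, two-sided, p = 0.10, the smallest that 3 against 3 allow, and p = 0.70 after adjustment over the 7 shares compared). The shares of FOXO1 (28.3% ± 3.68 in S-H and 38.6% ± 10.3 in S-L, SD, n = 3, exact permutation p = 0.30) and FOXO3 (36.1% ± 7.20 and 39.1% ± 9.69, SD, n = 3, exact permutation p = 0.80) overlapped. The sum of the 3 genes was 29.4 FPKM in LW63, 29.9 in LW70 and 29.6 in LW119, and 32.6 FPKM in LW82, 34.8 in LW88 and 37.5 in LW90. It was lower in each S-H pig than in each S-L pig, with little spread in S-H (exact permutation test, two-sided, p = 0.10, the smallest possible). This sum was formed after the values had been seen. Its separation of the groups and its small spread in S-H both depend on the inferred conversion of FOXO3. With size factors the groups nearly met, at 31.3 in LW70 against 31.5 in LW82, although their means lay further apart (27.6 and 37.8), and in TPM the groups overlapped (exact permutation p = 0.50).

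**Figure D3:**
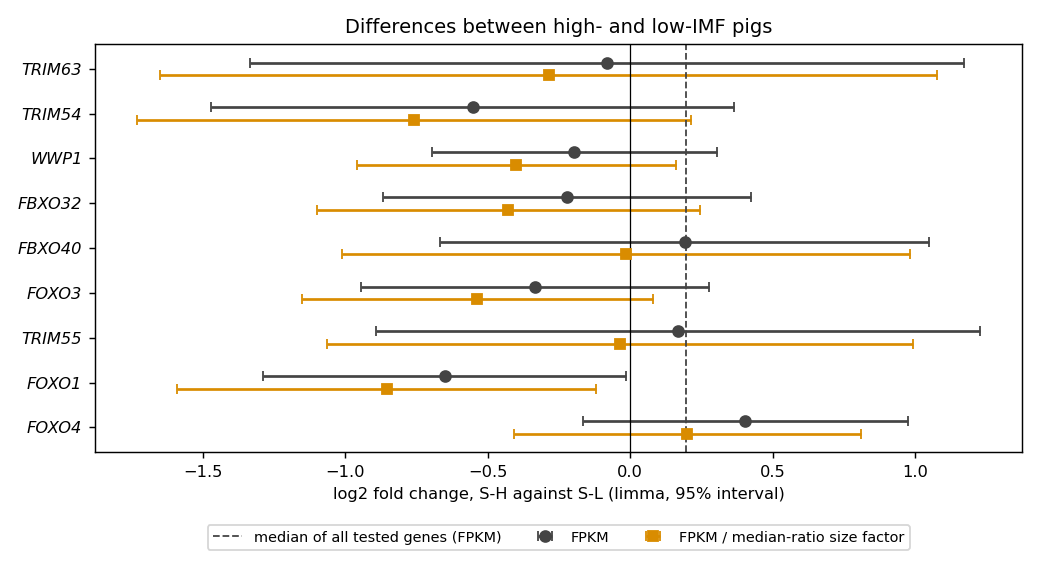
Log2 fold change of S-H against S-L for each gene with its 95% interval from limma, on the FPKM scale (grey circles) and after median-ratio size factors (orange squares), with the median of all tested genes on the FPKM scale dashed. The interval of FOXO1 is the only one that lies below 0, on both scales.

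Read as a set, 6 of the 9 genes had a negative log2 fold change on the FPKM scale, with a median of -0.20, while 29.4% of all tested genes were negative and their median was 0.19. With size factors, 8 of the 9 were negative, with a median of -0.40, against 49.3% of all tested genes and a median of 0.01. The lists of genes around the ligases, given below, mostly leaned the same way on that scale. Negative were 15 of 19 kinases and cofactors of FOXO (median -0.26) and 17 of 23 other muscle ubiquitin ligases (-0.17). So were 9 of 14 SCF partners, E2 enzymes and ubiquitin genes (-0.21), 15 of 25 FOXO targets and 7 of 9 glucocorticoid response genes (both -0.08). Of the ligase substrates and partners, 4 of 9 were negative (0.004). The 7 muscle fibre markers also had a low median, -0.48 in FPKM and -0.68 with size factors, but 3 were positive and 4 negative on both scales. In FPKM, ACTA1, skeletal muscle actin, was lowest at -0.97 (unadjusted p = 0.0255, limma) and TNNT1 was highest at 0.51 (unadjusted p = 0.0734, limma). The part of these markers in the values of the 9 genes was not tested. Of the 9 genes, FOXO4 was the exception with size factors, and TRIM55 and FBXO40 were close to 0 there, at -0.04 and -0.01. None of the single differences passed on either scale, where 1.25% of all tested genes passed in FPKM and 1.13% with size factors.

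The gene sums hid differences in transcript makeup. The 9 genes had 28 transcripts in the table, of which 24 had a value above 0 in at least 1 pig and 8 were assembled from the reads. None of the 23 tested transcripts passed the thresholds, where 1.25% of the 40336 tested transcripts did, and none had an unadjusted p below 0.05, where 5.57% did (limma, lowest adjusted p = 0.848). For FBXO32 most of the sum was in assembled transcripts, with S-H at 83.3% ± 2.53 and S-L at 70.9% ± 11.5 (SD, n = 3 each). The largest of them, FBXO32-OT1, alone held between 56.6% and 64.2% of the FBXO32 level, and its name is of the kind given to lncRNAs that overlap a gene. The annotated FBXO32 transcripts alone gave 7.84 FPKM in LW63, 5.85 in LW70 and 3.13 in LW119, against 11.5 FPKM in LW82, 6.61 in LW88 and 13.6 in LW90. On them, the log2 fold change was -0.94 (unadjusted p = 0.0448, adjusted p = 0.666, limma), in place of -0.22 for the sum. Among them, FBXO32-203 was 8.75 FPKM in LW90 and between 0.731 and 1.66 FPKM in the other 5 pigs.

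FBXO40 was carried by the annotated FBXO40-201 and the assembled FBXO40-OT1, and its low pigs were low in the first only. FBXO40-201 had 30.7 FPKM in LW63, 36.8 in LW70 and 5.70 in LW119, and 28.3 FPKM in LW82, 7.83 in LW88 and 24.3 in LW90. FBXO40-OT1, whose name is of the same kind as that of FBXO32-OT1, stayed between 9.74 and 14.1 FPKM in all 6 pigs. It held between 27.0% and 71.2% of the FBXO40 level, and FBXO40-201 alone averaged 22.3 FPKM, in place of 34.6 FPKM for the sum. WWP1 kept a steady sum over unsteady transcripts, since WWP1-203 was 0.548 FPKM in LW63, 10.6 in LW70 and 7.73 in LW119, and 0.0741 FPKM in LW82, 11.2 in LW88 and 0.511 in LW90. WWP1-202 was 23.0 FPKM in LW63, 18.7 in LW70 and 14.8 in LW119, and 34.2 FPKM in LW82, 15.7 in LW88 and 28.6 in LW90. Both transcripts had high and low pigs in each group. Transcripts that overlap can share reads, so these values may depend on how the reads were divided among them. The sequence shared by the transcripts was not examined. TRIM63 and FOXO1 each had 1 transcript in the table, and TRIM54-202 and FOXO4-202 held at least 96.1% and 96.9% of their genes in every pig.

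**Figure D4:**
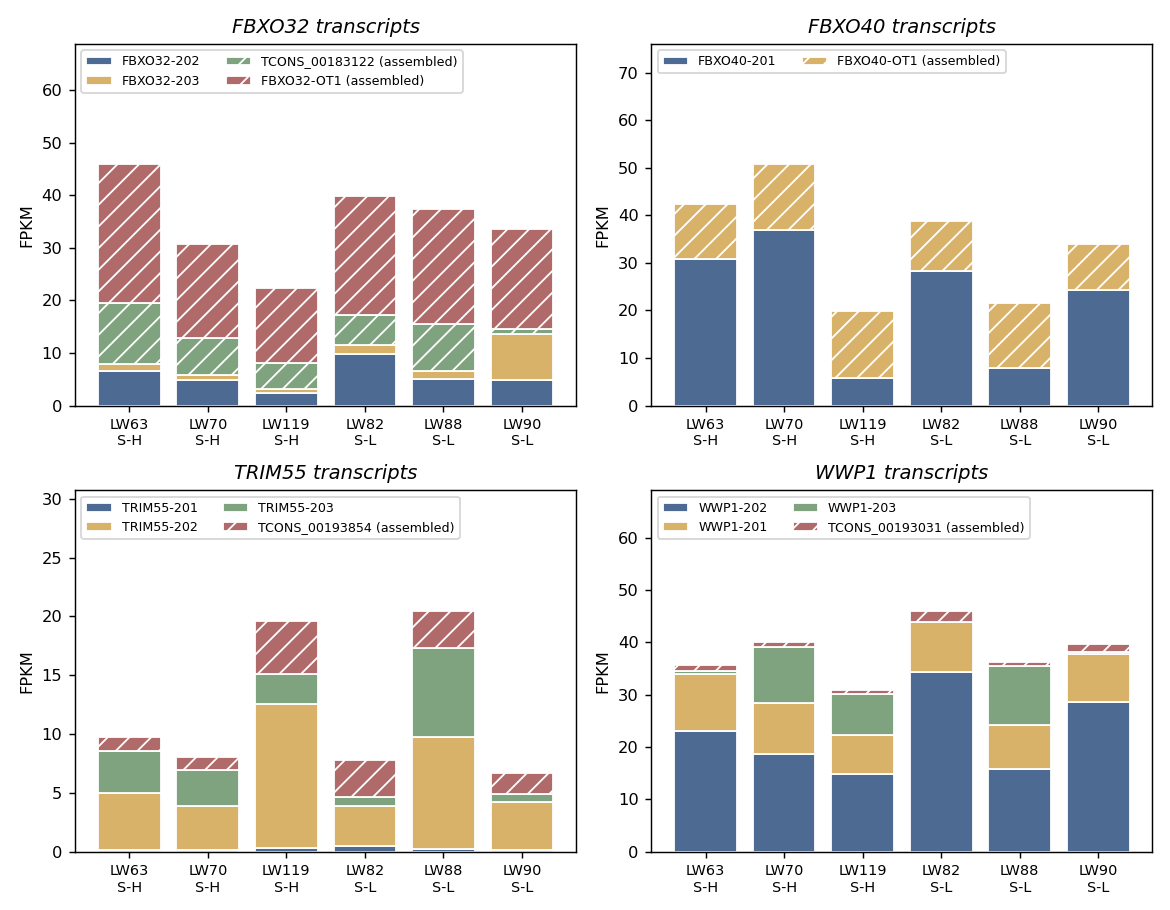
FPKM of each transcript above 0, stacked for each pig, for FBXO32, FBXO40, TRIM55 and WWP1, with assembled transcripts hatched. FBXO32-OT1 is the largest part of FBXO32 in all 6 pigs, and FBXO40-201 is small in LW119 (5.70 FPKM) and LW88 (7.83 FPKM).

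Across the 6 pigs the levels of the FOXO genes were compared with those of FBXO32 and TRIM63 on log2(FPKM + 0.1), in 7 pairs. The FBXO32 level in these pairs rested mostly on assembled transcripts, and pairs with its annotated transcripts alone were not tested. FBXO32 and TRIM63 had a Pearson r of 0.43 (exact permutation p = 0.406) and a Spearman rho of 0.26 (exact permutation p = 0.658), and without LW63 and LW119 r was 0.07. On the FPKM scale the strongest relation was between FOXO3 and TRIM63, and it was negative, with r of -0.76 (exact permutation p = 0.0931, adjusted over the 7 pairs p = 0.651) and rho of -0.71 (exact permutation p = 0.136, adjusted p = 0.833). Without LW82 and LW90, the pigs farthest from the median of FOXO3, r was -0.60. With size factors it was -0.47, and the strongest of the 7 was then FOXO4 with FBXO32, at 0.50. For the other 5 pairs r ranged from -0.20 to 0.38 and the exact permutation p was at least 0.426. None of the 7 pairs passed, and values within a library share its scaling.

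Among the 12781 other tested genes with a symbol, those most like FBXO32 over the 6 pigs were RSC1A1 (r = 0.994), AKIRIN1 (r = 0.992), NOXRED1 (r = 0.987), DGCR2 (r = 0.977) and GPR1 (r = 0.975). Those most like TRIM63 were MRPL50 (r = 0.999), NMD3 (r = 0.990), FAM43A (r = 0.988), CAV2 (r = 0.977) and APOA1 (r = 0.975). Neither ligase was among the 5 genes most like the other. For FBXO32 this likeness also rested mostly on its assembled transcripts. With 6 pigs and this many genes, such values of r are a description of these libraries only, and with size factors the r of CAV2 was 0.77 and that of AKIRIN1 was 0.88.

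Genes around the ligases were taken from lists of general knowledge. Of 23 other muscle ubiquitin ligases, all tested, the median log2 fold change was 0.04, against 0.19 over all tested genes. None of the 23 passed and none had an unadjusted p below 0.05 in FPKM, where 1.25% and 7.45% of all tested genes did. MDM2, the ligase of p53, came closest at -1.19 (unadjusted p = 0.0538, adjusted p = 0.665, limma, and -1.39 with size factors, unadjusted p = 0.0304), with 32.6 FPKM in LW63, 8.73 in LW70 and 7.07 in LW119 against 19.8 to 40.1 FPKM in S-L. LW63 decided this value, since without it MDM2 passed at -1.87 (unadjusted p = 0.000591, adjusted p = 0.512, limma). Of 14 matched SCF partners, E2 enzymes and ubiquitin genes, none passed. SKP1, the adaptor that links F-box proteins to the cullin, had a log2 fold change of 0.77 (unadjusted p = 0.0350, limma, and passing without LW119 at 1.05). With size factors its unadjusted p was 0.135 (limma).

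Of 25 FOXO target genes, 1 passed as higher in S-H and none as lower, where 0.931% of all tested genes passed as higher. It was CTSL, the lysosomal protease cathepsin L, with 7.76 FPKM in LW63, 3.39 in LW70 and 9.58 in LW119 against 1.33 FPKM in LW82, 3.06 in LW88 and 1.07 in LW90. It differed by 1.89 on the log2 scale (standard error 0.48, unadjusted p = 0.00337, adjusted p = 0.619, limma), and it no longer passed without LW63 (unadjusted p = 0.0135), LW119 (0.0127), LW82 (0.0149) or LW90 (0.0154, limma for all). CTSL is also abundant in macrophages, and the 4 macrophage markers summed to 38.3 FPKM in LW63, 16.9 in LW70 and 40.5 in LW119 against 20.3 to 28.9 FPKM in S-L. Their part in the CTSL difference was not tested. The autophagy genes of the list did not pass, among them ATG12 (0.64, unadjusted p = 0.0384) and ULK1 (-0.55, unadjusted p = 0.0652, limma for both), which are named for their low p after the values were seen. With size factors ATG12 was 0.44 (unadjusted p = 0.0649) and ULK1 -0.75 (unadjusted p = 0.00544, limma for both). On that scale 1 gene of the list, CTSL, had an unadjusted p below 0.05 as higher and 3 as lower (ULK1, GABARAPL1 and INSR), where 3.26% and 3.12% of all tested genes did. SESN3, a stress-response gene, passed only without LW82 (1.26, unadjusted p = 0.00619, limma). The median of the list was 0.13.

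Of 19 matched kinases and cofactors of FOXO, 1 passed as lower in S-H and none as higher, where 0.318% of all tested genes passed as lower. It was PPARGC1A, the coactivator of mitochondrial genes that is also known to restrain FOXO3 at the atrophy genes. PPARGC1A had 10.01 FPKM in LW63, 22.4 in LW70 and 15.1 in LW119, against 25.5 FPKM in LW82, 76.0 in LW88 and 43.7 in LW90. The groups did not overlap, with S-H below, which held for 2.06% of all tested genes. The difference on the log2 scale was -1.54 (standard error 0.42, unadjusted p = 0.00546, adjusted p = 0.639, limma), and it no longer passed without LW63 (unadjusted p = 0.0225), LW119 (0.0115), LW88 (0.0182) or LW90 (0.0168, limma for all). The kinases AKT1 (0.53, unadjusted p = 0.0587) and AKT2 (0.63, unadjusted p = 0.0558, limma for both), which phosphorylate FOXO proteins and were likewise named afterwards, did not pass. After size factors AKT1 was 0.33 (unadjusted p = 0.216) and AKT2 0.43 (unadjusted p = 0.159, limma for both). With size factors 3 genes of this list had an unadjusted p below 0.05 (limma), all lower (PPARGC1A, RICTOR and PDPK1). On that scale 3.12% of all tested genes had such a p as lower and 3.26% as higher. The median of this list was -0.06.

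None of the 9 matched glucocorticoid response genes and none of the 9 matched ligase substrates and partners passed or had an unadjusted p below 0.05 in FPKM. Over all tested genes these shares were 1.25% and 7.45%. The clock and glucocorticoid gene PER1 was 5.98 to 8.35 FPKM in S-H and 9.52 to 10.8 FPKM in S-L, without overlap (log2 fold change -0.46, unadjusted p = 0.0816, and -0.66 with size factors, unadjusted p = 0.0214, limma for both). Such a separation, with S-H below, held for 2.06% of all tested genes. The intermediate filament gene DES was 0.81 higher on the log2 scale (unadjusted p = 0.0706, limma), with overlap.

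**Figure D5:**
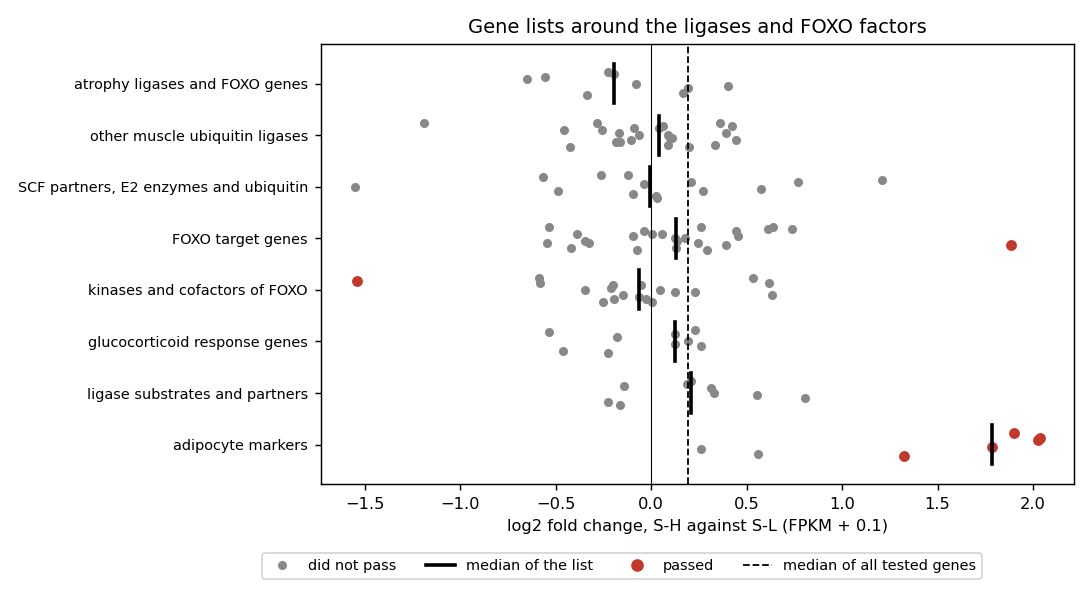
Log2 fold change of S-H against S-L for each tested gene of the lists, 1 point per gene, with genes that passed in red, the list median as a black bar and the median of all tested genes dashed. CTSL and PPARGC1A are the only genes of the lists shown that passed outside the adipocyte markers, of which 5 passed.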

How the data were processed

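Strand-specific libraries depleted of ribosomal RNA were made from LD muscle of 6 pigs. The authors used Hisat2 for alignment to Sscrofa11.1 and StringTie for assembly and quantification, whose versions are not given in the sources used here. The deposited values are FPKM per transcript and pig as computed by the authors, but the values of 21104 Ensembl transcripts that carry no symbol, FOXO3 among them, were taken to be TPM. No source states this, and it was inferred from the table's sums. These values, FOXO3 included, were multiplied by 1 factor per pig (0.639 to 0.847) computed from the table's own sums. All transcripts of a gene identifier were then summed. No scaling between libraries was added, read depth behind a value is unknown, and precision comes from the spread of 3 pigs per group. Symbols missing from the table were taken by Ensembl identifier for 822 genes.

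Limma 3.58.1 in R 4.3.3 was run with a variance trend on log2(FPKM + 0.1) over every gene or transcript whose mean reached 0.1 FPKM. Fold changes on this scale understate those of weakly expressed genes. The thresholds are those of the study, whose own test ran on counts not used here. Permutation tests were exact and two-sided. Python 3.11.15, numpy 2.4.6, pandas 2.3.3 and scipy 1.17.1 were used. The fit was tested on simulated data.

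The genes, lists and comparisons were chosen with earlier results of these data known. All 9 genes are named, with each list gene that passed, or else up to 3 of lowest p, the 5 genes most like FBXO32 and TRIM63, and the leading markers. Any other list gene was named after its values were seen. The alternatives were other pseudocounts (1 and 0.01), minimum levels, scalings, variance models and gene values, and each pig left out in turn. Those for the FOXO sum, the annotated FBXO32 level and shares, and the permutation within groups were chosen after seeing the data. Of the list genes, 1 is not reported by name here.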

Additional observations from a re-analysis of the deposited data

How the results depend on the processing

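None of the 9 ligase and FOXO genes passed in any of the 18 other settings. Of their 162 log2 fold changes in these settings, 150 kept their direction. TRIM55 turned to -0.035 and FBXO40 to -0.014 with size factors, FBXO40 to -0.0052 with quantile normalization, and TRIM63 to 0.053 in TPM. With single pigs left out, FBXO32 ranged from -0.49 to 0.025, TRIM63 from -0.49 to 0.61, TRIM55 from -0.21 to 0.66 and FBXO40 from -0.078 to 0.60, while the other 5 genes kept their sign. Of 56 other values of the share differences, 50 kept their direction. The other 6 came with single pigs left out, where the TRIM63 share difference ranged from -1.19 to 9.95 percentage points, TRIM55 from -0.591 to 2.57, FBXO32 from -7.99 to 0.896 and FOXO3 from -8.22 to 1.32. The r of FOXO1 with FBXO32 turned from -0.0012 to 0.0014 with a pseudocount of 1 and to 0.40 with size factors, and that of FOXO3 with FBXO32 to 0.17 with size factors. On deviations from the group means, r was -0.93 for FOXO3 with TRIM63 (exact permutation within groups, 36 pairings, p = 0.0833, adjusted p = 0.340) and 0.92 for FOXO4 with FBXO32 (p = 0.194, adjusted p = 0.340, by the same exact permutation). The difference in the FOXO sum, -5.32 FPKM, was -10.2 with size factors and -2.86 in TPM.

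The number of genes passing, 204, became 81 with a pseudocount of 1 and 118 with a mean of at least 1 FPKM, and it ranged from 134 without LW90 to 297 without LW82. With size factors 185 passed, 95 higher and 90 lower, in place of 152 and 52; in TPM it was 242 and 33, and with quantile normalization 85 and 106. The highest-mean transcript in place of the sum gave 10 genes with an adjusted p below 0.05, and leaving out LW90 gave 5 (limma for both). None of these genes was among the 9. The 2 list genes that passed, CTSL and PPARGC1A, became 1 in TPM, without a trend and with no minimum, and 0 with the highest-mean transcript, and the number ranged from 0 without LW90 to 2 without LW70 or LW82. The genes differed, with MDM2 alone without LW63, SKP1 alone without LW119, CTSL alone without LW88, and PPARGC1A with SESN3 without LW82. CTSL passed in 13 and PPARGC1A in 10 of the 18 settings, with adjusted p from 0.396 to 0.9999 and 0.387 to 0.9999. Without LW88, 1 transcript passed, TRIM55-203 (log2 fold change 1.97, adjusted p = 0.287, limma), and none did without any other single pig. The cause of these changes was not tested. No paired analysis was possible because each pig belongs to 1 group and the labels number no pigs across groups. With 3 pigs per group, exact tests between the groups cannot reach a p below 0.10.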
